A study of Mus musculus with 5 samples.

Results

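Enzymes and regulators of cholesterol and fatty acid synthesis were compared between quiescent melanocyte stem cells (McSC) and differentiated melanocytes of mouse back skin. The set holds 30 genes taken by symbol from a count table of 24100 genes: 18 enzymes of cholesterol synthesis, 6 of fatty acid synthesis, and 6 regulators and sterol carriers. All 30 were found and all passed the filter on low counts. The quiescent McSC came from males carrying a Dct-eGFP reporter on a mixed CD1/C57Bl6J background, in the second telogen (the resting phase of the hair cycle). Library 1 pooled 4 males at postnatal day 60, and library 2 pooled 4 males at day 62. These cells were green, medium to low for integrin α6, and negative for CD34, Sca1, CD140a, CD45 and CD31. The melanocytes came from males on the same mixed background that carried Dct-EGFP together with Lef1-RFP, at postnatal day 10 in full anagen (the growth phase). Libraries 1, 2 and 3 pooled 3, 2 and 4 males, and the gate also required the red reporter and c-Kit. Age, hair cycle stage, the second reporter and the gate therefore differ together between the groups and cannot be told apart as sources of a difference. RNA was sequenced after poly-A selection without strand information. By its title, the series asks how BMP signals act on McSC that have been activated and may differentiate.

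Cholesterol is built from acetyl-CoA through mevalonate, isoprenoid units, squalene and lanosterol. Fatty acids are built from the same acetyl-CoA through malonyl-CoA and palmitate, which is then elongated and desaturated. Both routes are controlled by the SREBP transcription factors, which Scap carries from the endoplasmic reticulum to the Golgi for cleavage, and which Insig proteins hold back when sterols are plentiful. In skin, lipid synthesis is best known from the sebaceous gland, which lies on the same follicle as the quiescent McSC.

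Promoter windows were searched for sequence features, and 1 of them was found in most of the cholesterol enzymes. RefSeq windows on build GRCm38.p6, from 250 bases before to 50 bases after a start site, were at hand for 24 of the 30 genes. The letters CCAAT, bound by the factor NF-Y that works together with SREBPs, were present on either strand in 20 of these 24 genes (83.3%). Of the 13166 tested genes with such a window, 42.2% held them. Among cholesterol enzymes they were present in 14 of 15, all but Acat2. Among fatty acid enzymes they were present in Acly and Fasn but not in Acaca or Elovl6, 2 of 4 (50%), near the share of tested genes. The sterol regulatory element, searched as TCACNCCAC on both strands, was present in Hmgcs1 alone of the 24, and in 1.5% of the tested genes with a window. Its core CACNCCAC, which is contained in the longer motif, was present in Acat2, Hmgcs1 and Insig1 (12.5% of the 24, against 7.79% of tested genes). The E-box CACGTG was present in 5 of 24 (20.8%, against 10.8% of tested genes). These are matches of letters within a 300-base window and not measured binding.

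The following 6 windows are shown 5′ to 3′ on the strand of each gene because all hold CCAAT boxes while their genes went in different directions. Melanocytes had more Mvd, Fasn and Nsdhl and less Msmo1 and Ebp, and Hmgcs1 passed the test in neither direction. Capitals mark CCAAT, its reverse complement ATTGG, and in Hmgcs1 also the sterol regulatory element TCACCCCAC. In Fasn a forward and a reverse match overlap. The windows lie at chr13:119690101-119690400 on the plus strand (Hmgcs1), chr8:122443373-122443672 on the minus strand (Mvd), chr11:120824498-120824797 on the minus strand (Fasn), chrX:72918271-72918570 on the plus strand (Nsdhl), chr8:64733529-64733828 on the minus strand (Msmo1) and chrX:8193463-8193762 on the minus strand (Ebp).
Hmgcs1: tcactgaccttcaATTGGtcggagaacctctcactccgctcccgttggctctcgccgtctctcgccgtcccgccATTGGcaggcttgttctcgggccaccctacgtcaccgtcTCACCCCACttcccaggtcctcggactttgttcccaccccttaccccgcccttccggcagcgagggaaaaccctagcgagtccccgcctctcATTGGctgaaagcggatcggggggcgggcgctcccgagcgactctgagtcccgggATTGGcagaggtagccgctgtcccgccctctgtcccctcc
Mvd: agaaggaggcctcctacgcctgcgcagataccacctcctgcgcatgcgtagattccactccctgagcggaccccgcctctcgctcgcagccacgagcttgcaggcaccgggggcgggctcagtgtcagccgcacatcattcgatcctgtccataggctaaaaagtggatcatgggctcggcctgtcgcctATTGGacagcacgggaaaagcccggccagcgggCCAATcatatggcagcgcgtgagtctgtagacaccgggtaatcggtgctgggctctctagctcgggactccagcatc
Fasn: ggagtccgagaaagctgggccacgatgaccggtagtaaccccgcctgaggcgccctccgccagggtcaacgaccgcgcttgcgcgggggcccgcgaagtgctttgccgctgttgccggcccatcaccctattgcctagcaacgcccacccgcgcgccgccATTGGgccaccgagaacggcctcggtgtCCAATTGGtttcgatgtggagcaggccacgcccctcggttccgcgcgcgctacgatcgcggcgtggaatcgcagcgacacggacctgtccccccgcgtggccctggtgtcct
Nsdhl: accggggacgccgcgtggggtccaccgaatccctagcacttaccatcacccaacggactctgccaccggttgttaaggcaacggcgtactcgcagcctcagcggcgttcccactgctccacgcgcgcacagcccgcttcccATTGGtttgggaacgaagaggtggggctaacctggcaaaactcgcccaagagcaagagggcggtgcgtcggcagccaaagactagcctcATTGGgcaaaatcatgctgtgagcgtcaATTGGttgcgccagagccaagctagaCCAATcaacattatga
Msmo1: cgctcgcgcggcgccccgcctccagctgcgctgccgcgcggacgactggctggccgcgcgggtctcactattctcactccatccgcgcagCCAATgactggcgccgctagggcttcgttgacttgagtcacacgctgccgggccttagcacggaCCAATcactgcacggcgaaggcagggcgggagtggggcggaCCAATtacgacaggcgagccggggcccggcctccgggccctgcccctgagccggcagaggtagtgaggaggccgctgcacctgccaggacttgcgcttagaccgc
Ebp: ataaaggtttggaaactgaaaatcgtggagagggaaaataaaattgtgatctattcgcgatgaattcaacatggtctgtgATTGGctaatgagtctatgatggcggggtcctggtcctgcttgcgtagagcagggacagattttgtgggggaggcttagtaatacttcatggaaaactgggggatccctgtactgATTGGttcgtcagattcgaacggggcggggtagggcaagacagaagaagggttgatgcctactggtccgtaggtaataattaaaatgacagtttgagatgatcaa

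The libraries held between 17512381 and 124530834 counts, and no member had fewer than 592 counts in any library, so counting error was small for all 30. Levels below are CPM, each count scaled to the size of its library after TMM correction, given for each of the 2 quiescent McSC and 3 melanocyte libraries in order, with means ± SD where stated. Log2 fold changes are positive where melanocytes were higher and carry their standard error (SE), from edgeR's quasi-likelihood test, and a gene was called when its adjusted p was under 0.05. As a check of the sort, the 10 pigment cell markers summed to 20270 and 21700 CPM in the quiescent McSC and to 3086, 17980 and 19620 CPM in melanocytes 1, 2 and 3. Melanocyte 1 was thus low in pigment genes. Much of each sum was Dct, at 10440 and 11530 CPM against 1073, 5777 and 6505 CPM. Of the 10 markers, 4 were called lower and 1 higher in melanocytes, so the sums hide markers that went in different directions. The 50% called was near the share of all tested genes, of which 29.1% were called higher and 26.2% lower, 55.4% in all. The fibroblast and dermal papilla markers summed to 59.3 and 43.0 CPM in the quiescent McSC and to 5466, 2122 and 1955 CPM in the melanocytes, highest in melanocyte 1. Hair follicle markers rose from 72.2 and 21.7 CPM to 3881, 5138 and 3693 CPM, and all 10 proliferation genes were called higher in melanocytes. Other lists were higher in the quiescent McSC. All 10 immediate early genes, which are induced within minutes by stimuli that include tissue dissociation, were called lower in melanocytes, and their sum was 24820 and 39340 CPM in the quiescent McSC against 2484, 2543 and 2216 CPM. Among them Atf3 was at 4321 and 5617 CPM against 71.1, 110 and 67.1 CPM (log2 fold change -5.91 ± 0.32 SE, adjusted p = 7.83e-05). Of 12 keratinocyte markers, 5 were called higher and 6 lower in melanocytes, 91.7% in all. Their sums overlapped, at 3425 and 4956 CPM against 5074, 4447 and 3694 CPM. Krt10, a keratin of the upper epidermis, was at 657 and 1261 CPM in the quiescent McSC against 70.5, 14.3 and 37.1 CPM, while the basal keratin Krt5 was at 662 and 756 CPM against 1786, 1332 and 1245 CPM. The part of these other cells, and of what moved the immediate early genes, in the results below was not tested. In these bulk libraries, fewer cells of a type and less RNA per cell cannot be told apart.

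Of the 30 genes, 13 were higher and 4 lower in melanocytes, and 13 passed the test in neither direction. Among all 16953 tested genes, 29.1% were called higher and 26.2% lower, 55.4% in all, against 56.7% of the members. The share of members called was therefore near the background. The groups did not overlap in CPM for 22 of the 30 (73.3%), against 74.5% of all tested genes. The median log2 fold change was 0.24 over the members and 0.03 over all tested genes. Without melanocyte 2 the median of the members was 0.12. Without a composition factor, scaling by library size only, the median of all genes moved to 0.26. Then 16 members were called higher and 2 lower, beside 6064 higher and 3456 lower of all genes in place of 4937 and 4448. With melanocyte 1 left out, 14 members were called higher and 4 lower, and all 17 calls were kept.

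**Figure D1:**
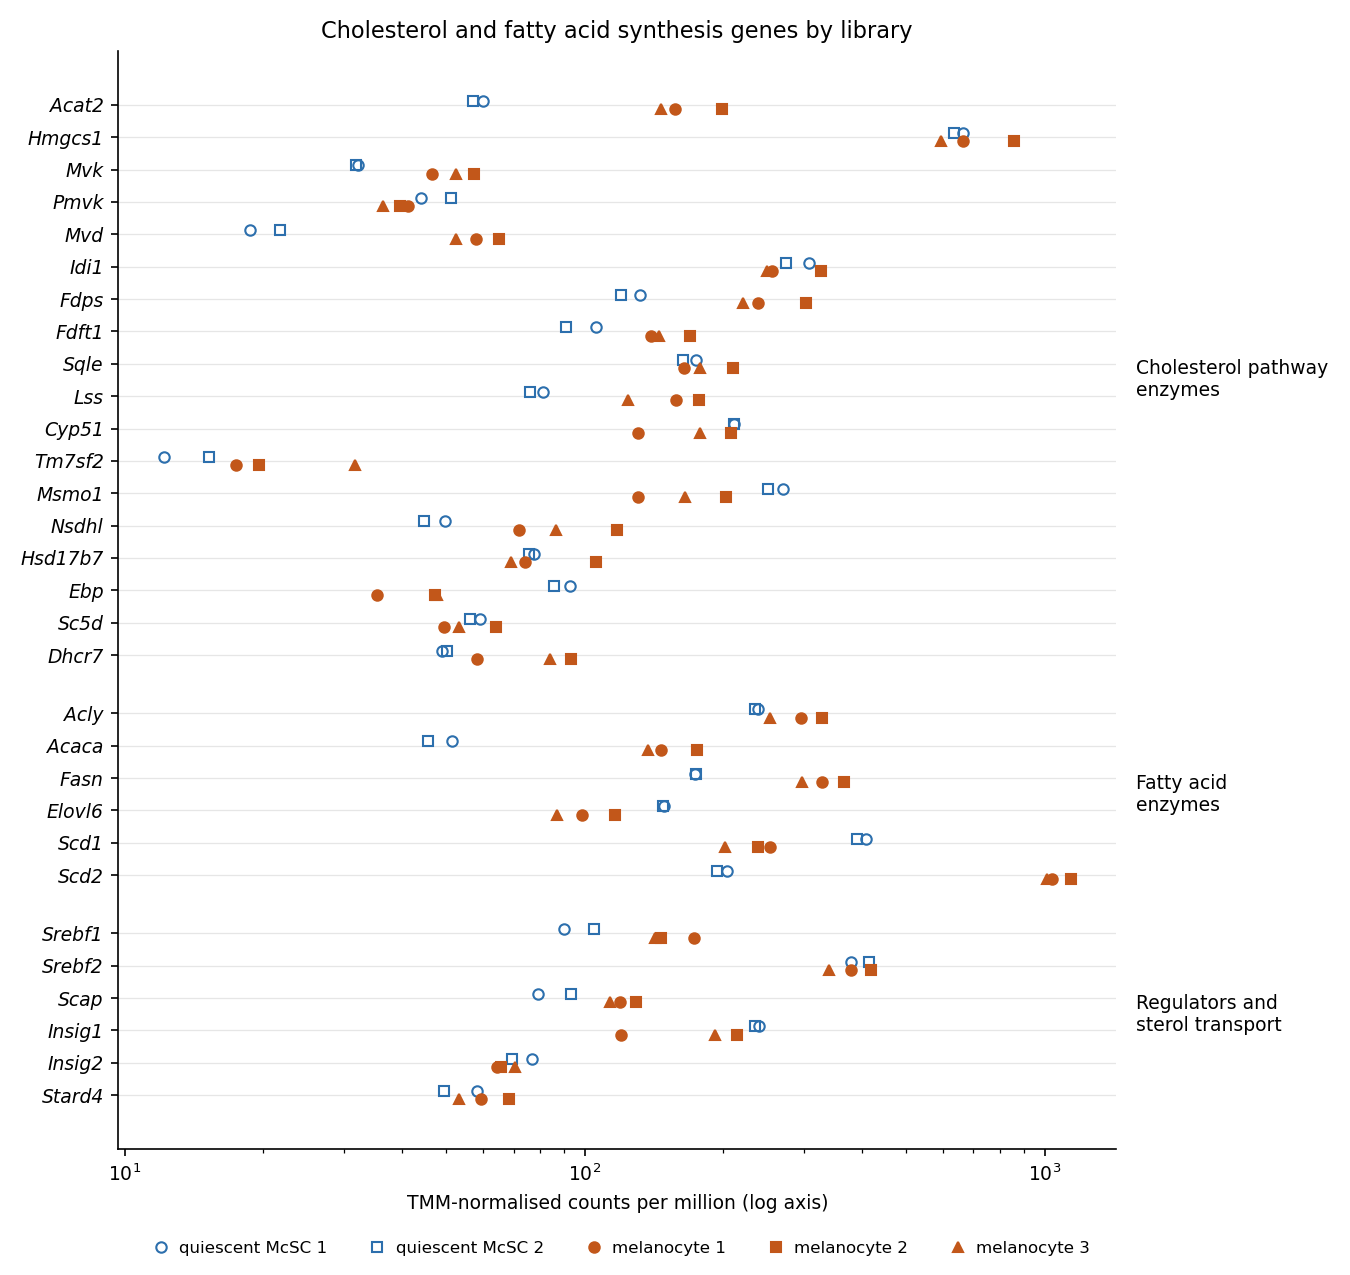
TMM-normalised CPM (log axis) of the 30 genes in each library, with quiescent McSC and melanocyte libraries as separate points. Scd2 stands out at 1011 to 1141 CPM in the melanocytes against 194 and 204 CPM in the quiescent McSC, while Hmgcs1 is high in both groups.

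The early steps of cholesterol synthesis, from acetyl-CoA to squalene epoxide, held 9 genes. Of these, 5 were higher in melanocytes, none was lower and 4 were not called, with a median log2 fold change of 0.62. The 55.6% called was near the 55.4% of all tested genes. The largest differences were at Mvd and Acat2. Mvd (mevalonate diphosphate decarboxylase, which makes isopentenyl diphosphate) was at 18.7 and 21.7 CPM in the quiescent McSC and 57.9, 65.1 and 52.6 CPM in the melanocytes. Every melanocyte library was above both McSC libraries, a 2.90-fold difference in mean CPM (log2 fold change 1.53 ± 0.15 SE, adjusted p = 0.000455). Acat2, the cytosolic thiolase that joins acetyl-CoA units, was at 60.1 and 57.2 CPM against 157, 199 and 146 CPM, and the groups were again apart (1.51 ± 0.16 SE, adjusted p = 0.000662). Of the 50-base stretches of Acat2, 39.1% also occur in other genes, chiefly its near copy Acat3, which was itself at 0.642 to 2.52 CPM.

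Fdps, which makes farnesyl diphosphate at the branch point to sterols and prenyl groups, was at 132 and 120 CPM in the quiescent McSC and 238, 302 and 221 CPM in the melanocytes. The difference was 2.02-fold (1.01 ± 0.17 SE, adjusted p = 0.00349), with no overlap between groups. Part of its sequence, 26.2% of 50-base stretches, is shared, chiefly with the overlapping model Gm43738. Mvk, the mevalonate kinase, was at 32.0 and 31.7 CPM against 46.6, 57.4 and 52.4 CPM, a smaller but separated rise of 0.71 ± 0.13 SE on the log2 scale (adjusted p = 0.00483). Fdft1 is squalene synthase, the first enzyme committed to sterols. Its levels were 106 and 91.1 CPM against 139, 169 and 145 CPM (0.62 ± 0.14 SE, adjusted p = 0.00986). That call was lost without quiescent McSC 2 (adjusted p = 0.0849). Fdft1 overlaps 774 bases of Ctsb on the opposite strand, and without strand information their reads cannot be told apart. Ctsb itself was at 553 to 860 CPM over the 5 libraries and was not called (adjusted p = 0.868).

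The other 4 early genes passed the test in neither direction. Hmgcs1, the HMG-CoA synthase, was at 666 and 636 CPM in the quiescent McSC and 666, 857 and 596 CPM in the melanocytes. These ranges overlap (0.12 ± 0.19 SE, adjusted p = 0.629). Levels per kilobase of transcript can be compared between genes. On that scale Hmgcs1 had the highest mean of the 30 in both groups, 188 CPM per kb in the quiescent McSC and 204 in the melanocytes. Scd2 was close to it in the melanocytes, at 195 CPM per kb. Hmgcs1 overlaps 557 bases of Gm48342 on the opposite strand, whose reads cannot be told apart without strand information. Idi1, which isomerises isopentenyl diphosphate, changed by -0.07 ± 0.16 SE, and its sign turned under scaling by library size only. Of its 50-base stretches, 25.3% occur elsewhere, chiefly in the pseudogene Gm13502. Sqle, the squalene epoxidase and a known control point of the pathway, changed by 0.12 ± 0.14 SE. Pmvk, the phosphomevalonate kinase, changed by -0.29 ± 0.12 SE (adjusted p = 0.0923). Quiescent McSC thus held transcripts of Hmgcs1 and Sqle at levels whose ranges overlapped those of melanocytes.

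The steps from squalene epoxide through lanosterol to cholesterol went both ways. Of 9 genes, 3 were higher and 2 lower in melanocytes and 4 passed in neither direction, with a median log2 fold change of 0.11. Here too 55.6% were called, against 55.4% of all tested genes. Lss, which closes the sterol rings to form lanosterol, was at 81.0 and 76.0 CPM in the quiescent McSC and 158, 177 and 124 CPM in the melanocytes. All melanocyte libraries lay above the McSC ones (0.96 ± 0.17 SE, adjusted p = 0.00413). Nsdhl, a dehydrogenase of C4 demethylation, was at 49.6 and 44.8 CPM against 72.0, 117 and 86.8 CPM (0.96 ± 0.22 SE, adjusted p = 0.0109). Dhcr7, which catalyses the last step of one arm of the route to cholesterol, was at 48.9 and 50.1 CPM against 58.3, 93.2 and 83.9 CPM (0.66 ± 0.21 SE, adjusted p = 0.0353). Leaving out a single McSC library ended both of these calls, with adjusted p = 0.0545 and 0.0804 for Nsdhl and 0.152 and 0.138 for Dhcr7. Dhcr7 was also not called without melanocyte 2 (adjusted p = 0.0895) or melanocyte 3 (0.0845).

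Ebp and Msmo1 went the other way. Ebp, the sterol isomerase that moves the ring double bond, was at 92.7 and 85.8 CPM in the quiescent McSC and 35.3, 47.2 and 47.8 CPM in the melanocytes. Mean levels were 89.2 ± 4.90 (SD) and 43.5 ± 7.03 (SD) CPM. It was 2.05-fold higher in quiescent McSC (log2 fold change -1.04 ± 0.16 SE, adjusted p = 0.00233) and was called under every alternative tried. Msmo1, the sterol C4-methyl oxidase that acts just before Nsdhl in the same demethylation, was at 270 and 250 CPM against 131, 202 and 165 CPM (-0.65 ± 0.19 SE, adjusted p = 0.0302). The Msmo1 groups did not overlap, but its call was lost without quiescent McSC 1 (adjusted p = 0.141), quiescent McSC 2 (0.0971) or melanocyte 3 (0.0760). It was also lost when scaled by library size only (0.0663) and when all libraries were thinned to the shallowest depth (0.0511).

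Cyp51, the lanosterol demethylase, was at 212 and 211 CPM in the quiescent McSC and 131, 208 and 178 CPM in the melanocytes. The groups did not overlap, but the gene was not called (-0.30 ± 0.20 SE, adjusted p = 0.250). Without melanocyte 1, the lowest library, it changed by -0.13 and was again not called (adjusted p = 0.433). Tm7sf2, a sterol reductase of the same stretch, had the lowest level per kilobase of the cholesterol enzymes in the quiescent McSC, 9.31 CPM per kb. It changed by 0.74 ± 0.30 SE (adjusted p = 0.0786) and was called without melanocyte 1 (adjusted p = 0.0210). Hsd17b7, the ketosteroid reductase of C4 demethylation, changed by 0.11 ± 0.20 SE. Sc5d, the desaturase of the last steps, changed by -0.05 ± 0.14 SE, with a sign that turned under scaling by library size only. Neither of these had groups that were apart.

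**Figure D2:**
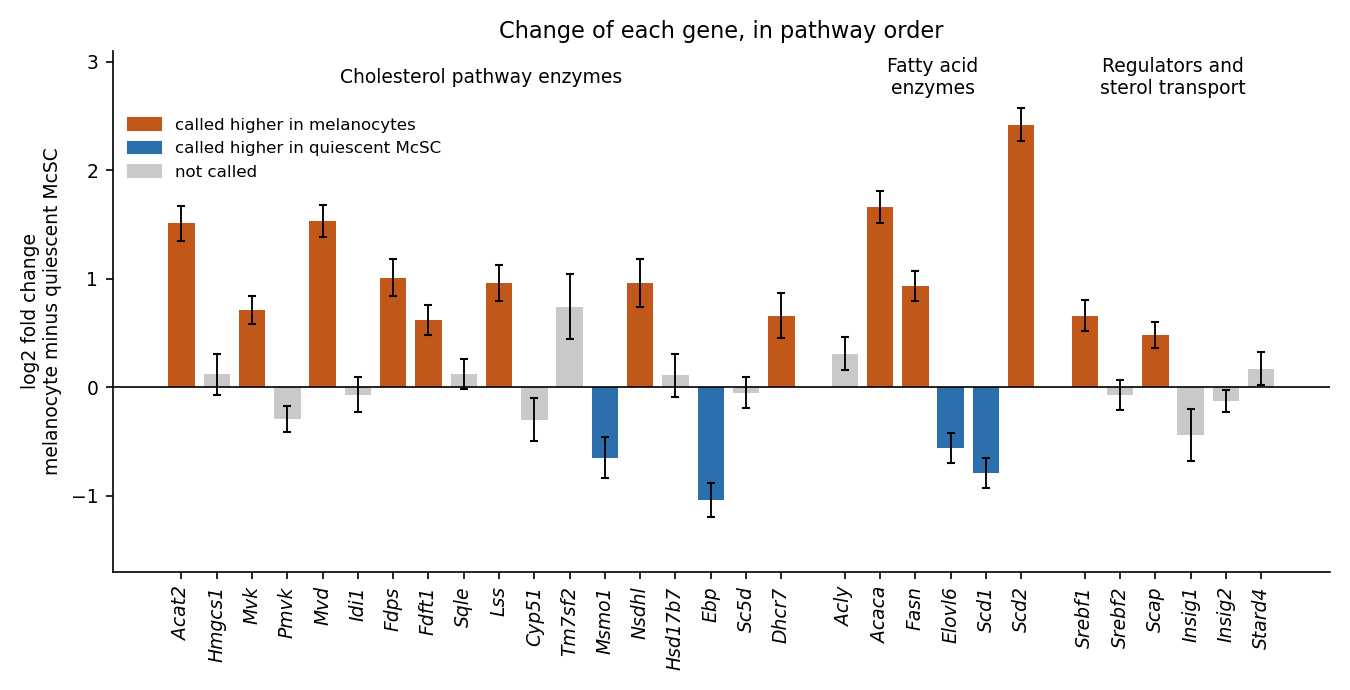
Log2 fold change (melanocyte minus quiescent McSC) of each gene as a bar with its SE as the error bar, in pathway order, coloured by call. Mvd and Acat2 reach 1.53 and 1.51, Ebp and Msmo1 lie below 0, and Scd2 is tallest at 2.42.

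All 6 fatty acid enzymes had groups that did not overlap, with 3 higher in melanocytes, 2 lower and 1 not called. The shares among all tested genes were 74.5% without overlap and 55.4% called, against 100% and 83.3% of these 6. Whether so small a set differs from that background was not tested. Acaca, the acetyl-CoA carboxylase that makes malonyl-CoA, was at 51.5 and 45.6 CPM in the quiescent McSC and 146, 176 and 137 CPM in the melanocytes. That is a 3.15-fold difference (1.66 ± 0.15 SE, adjusted p = 0.000360). Of its 50-base stretches, 30.4% occur elsewhere, chiefly in the pseudogene Gm5182. Fasn, the fatty acid synthase that builds palmitate, was at 173 and 174 CPM against 328, 367 and 297 CPM, 1.90-fold higher in melanocytes (0.93 ± 0.14 SE, adjusted p = 0.00218). Acly supplies cytosolic acetyl-CoA from citrate to both pathways. It was at 238 and 234 CPM against 295, 329 and 253 CPM and was not called (0.31 ± 0.15 SE, adjusted p = 0.124). Elovl6, which elongates palmitate to stearate, was at 149 and 148 CPM against 98.8, 116 and 87.1 CPM, lower in every melanocyte library (-0.56 ± 0.14 SE, adjusted p = 0.0165). Its call was lost without quiescent McSC 1 (adjusted p = 0.0837) or McSC 2 (0.0812) and when scaled by library size only (0.0610).

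The stearoyl-CoA desaturases Scd1 and Scd2 place the first double bond in palmitate and stearate, and they went in opposite directions. Scd1 (chromosome 19, 44394450 to 44407709, minus strand) was at 410 and 391 CPM in the quiescent McSC and 253, 239 and 202 CPM in the melanocytes. It was 1.73-fold higher in quiescent McSC, with no overlap (log2 fold change -0.79 ± 0.14 SE, adjusted p = 0.00432). Scd2 (chromosome 19, 44293676 to 44306864, plus strand) was at 204 and 194 CPM against 1038, 1141 and 1011 CPM, or 199 ± 6.53 (SD) against 1063 ± 68.2 (SD) CPM. This 5.35-fold difference was the largest among the 30 genes (2.42 ± 0.15 SE, adjusted p = 0.000119). Per kilobase, the ratio of Scd2 to Scd1 was 0.440 in both McSC libraries and 3.63, 4.24 and 4.45 in the melanocyte libraries. The order of the paralogs was thus reversed between the 2 groups of bulk libraries. A ratio within a library does not depend on the scaling between libraries. Of the 50-base stretches of Scd1, 4.56% occur elsewhere, chiefly in Scd3, and of those of Scd2, 3.97% do, chiefly in Scd1. Both calls held under every alternative tried.

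**Figure D3:**
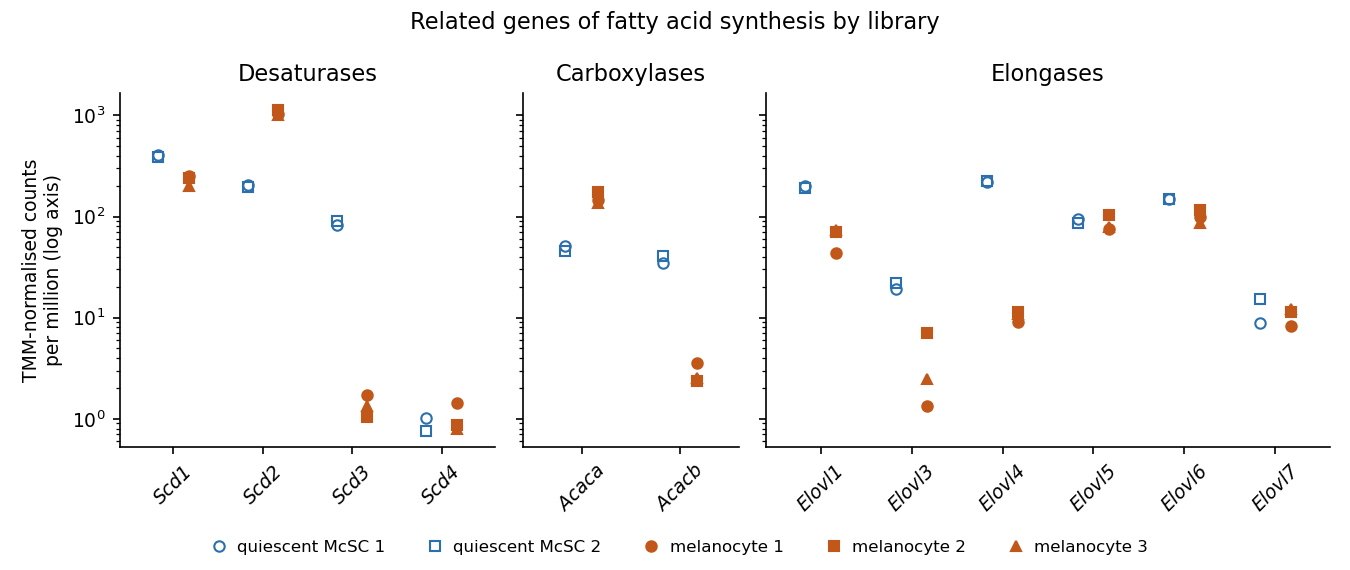
TMM-normalised CPM (log axis) of related desaturases, carboxylases and elongases, with 1 point per library. Scd1, Scd3, Acacb and Elovl4 are higher in both quiescent McSC libraries, while Scd2 and Acaca are higher in all 3 melanocyte libraries. Scd4, Elovl5 and Elovl7 overlap between groups.

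Among the 6 regulators and sterol carriers, Srebf1 and Scap were called higher in melanocytes and none was called lower. That is 33.3% called, against 55.4% of all tested genes. The groups did not overlap for 50% of the 6, against 74.5% of all tested genes. Srebf1, whose product is best known for driving fatty acid genes, was at 90.3 and 105 CPM in the quiescent McSC and 173, 147 and 142 CPM in the melanocytes (0.66 ± 0.14 SE, adjusted p = 0.00823). Scap, the SREBP escort, was at 79.2 and 93.5 CPM against 119, 129 and 113 CPM (0.48 ± 0.12 SE, adjusted p = 0.0168). Both groups of values were apart, but without quiescent McSC 1 neither gene was called. Scap overlaps 985 bases of 5830462I19Rik on the opposite strand. Srebf2, whose product chiefly drives cholesterol genes, was at 380 and 416 CPM against 379, 420 and 339 CPM. Its ranges overlap (-0.07 ± 0.14 SE, adjusted p = 0.706), and the sign of this small value turned under scaling by library size only. Per kilobase, the level of Srebf2 was 3.56 and 3.36 times that of Srebf1 in the quiescent McSC and 1.85, 2.42 and 2.03 times in the melanocytes.

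Insig1, itself a sterol-responsive retention factor, was at 239 and 235 CPM in the quiescent McSC and 120, 214 and 192 CPM in the melanocytes. Melanocyte 1 was far below the other melanocytes, and the gene was not called (-0.44 ± 0.24 SE, adjusted p = 0.176). Insig2, the paralog that is less dependent on sterol levels, changed by -0.13 ± 0.10 SE, with a sign that turned under scaling by library size only. Stard4, a soluble cholesterol carrier, changed by 0.17 ± 0.15 SE. The ranges of Insig2 and of Stard4 overlapped between groups.

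Sterol and fatty acid enzymes were set side by side by their counts and medians. Among all tested genes, 29.1% were called higher and 26.2% lower, 55.4% in all, with a median log2 fold change of 0.03. Of the 18 cholesterol enzymes, 8 (44.4%) were higher and 2 (11.1%) lower in melanocytes, 55.6% in all. Their median log2 fold change was 0.37 and their range ran from -1.04 to 1.53. Without melanocyte 2 this median was 0.24. Of the 6 fatty acid enzymes, 3 (50%) were higher and 2 (33.3%) lower, with a median of 0.62 and a range from -0.79 to 2.42. The difference between the medians was not tested, and both sets held genes of either direction. Without quiescent McSC 2, 5 cholesterol enzymes were called higher.

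The melanocyte libraries also differed among themselves across the set. Melanocyte 2 had the highest value of the 3 in 24 of the 30 genes and the lowest in none. Melanocyte 3 was lowest in 18 and melanocyte 1 in 12. Compared with melanocyte 3, melanocyte 1 had lower levels of all 10 pigment markers, with a median log2 difference of -2.56, while the median difference of the 30 lipid genes was 0.08. Compared with melanocyte 2, melanocyte 1 was again lower in all 10 pigment markers, by a median of -2.33. There the lipid genes were lower too, 27 of 30 of them, with a median log2 difference of -0.27 over the 30 and -0.35 over the cholesterol enzymes. Melanocyte 3 was also lower than melanocyte 2 in 27 of the 30 lipid genes, by a median of -0.28. The pigment markers of melanocyte 3 had a median difference of 0.21 from melanocyte 2, with 1 of 10 lower. The part of the low pigment level in the lipid gene values of melanocyte 1 was not tested.

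Genes around the core pathway were read from lists of named relatives. Their shares called are set beside those of all tested genes, 29.1% higher and 26.2% lower, 55.4% in all. The isoprenoid branch leads to prenylated proteins, dolichol and ubiquinone. In it, 2 of 12 genes (16.7%) were lower in melanocytes and none was called higher. Ggps1, which makes geranylgeranyl diphosphate from the product of Fdps, was at 92.9 and 83.9 CPM in the quiescent McSC and 31.6, 28.2 and 28.5 CPM in the melanocytes (-1.59 ± 0.11 SE, adjusted p = 0.000164). It went opposite to Fdps. The other was Fnta, a prenyltransferase subunit, at -0.35 ± 0.12 SE (adjusted p = 0.0450). Its call was lost when any one of the libraries other than melanocyte 2 was left out, with adjusted p between 0.0730 and 0.169. Without melanocyte 1, 1 gene of the branch was called higher.

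Of 12 genes of SREBP processing and sterol sensing, 2 were higher and 5 lower in melanocytes. That is 58.3% called, near the 55.4% of all tested genes. Pgrmc1, a sterol-binding membrane protein, was at 177 and 187 CPM against 50.7, 69.2 and 60.5 CPM (-1.60 ± 0.15 SE, adjusted p = 0.000397). Nr1h2, the liver X receptor beta that responds to oxysterols, changed by -0.97 ± 0.17 SE (adjusted p = 0.00390). Rnf139, a ubiquitin ligase of the endoplasmic reticulum, changed by -0.89 ± 0.18 SE (adjusted p = 0.00652). The 2 higher calls were unstable, with none left when either McSC library was left out and 1 left without melanocyte 1 or 2. The 5 lower calls became 3 without either McSC library.

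For uptake, storage and efflux of sterols, 4 of 14 genes were higher and 6 lower (71.4% called, against 55.4% of all tested genes). Scarb1, the HDL receptor that takes up cholesteryl esters, was at 17.02 and 14.91 CPM in the quiescent McSC and 83.2, 87.3 and 71.4 CPM in the melanocytes (2.34 ± 0.15 SE, adjusted p = 0.000111). Lrp8, a lipoprotein receptor of the LDL receptor family, was at 4.65 and 3.98 CPM against 32.3, 31.7 and 39.6 CPM (3.00 ± 0.19 SE, adjusted p = 0.000122). Abcg1, which exports cholesterol, went the other way, from 17.3 and 17.1 CPM to 2.34, 3.28 and 2.46 CPM (-2.67 ± 0.23 SE, adjusted p = 0.000330). The receptors named here were thus higher and this exporter lower in melanocytes, with the groups apart in each case.

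Of 19 tested genes of further fatty acid synthesis, 3 were higher and 6 lower in melanocytes. That is 47.4% called, against 55.4% of all tested genes. Elovl4, which makes very long chain fatty acids, was at 221 and 226 CPM in the quiescent McSC and 9.13, 11.4 and 10.9 CPM in the melanocytes (-4.41 ± 0.13 SE, adjusted p = 3.65e-05). Scd3, a desaturase paralog known from sebaceous glands, was at 81.6 and 89.7 CPM against 1.70, 1.04 and 1.34 CPM (-5.99 ± 0.23 SE, adjusted p = 4.31e-05). Acacb, the mitochondrial carboxylase whose malonyl-CoA restrains fatty acid oxidation, was at 34.9 and 40.6 CPM against 3.60, 2.39 and 2.51 CPM (-3.73 ± 0.24 SE, adjusted p = 0.000119). Acacb and Scd3 were thus lower in melanocytes, where Acaca and Scd2 were higher. The higher calls numbered 6 without melanocyte 1 and 1 without quiescent McSC 1.

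In fatty acid activation and triglyceride metabolism, 2 of 14 genes were higher and 7 lower in melanocytes. That is 64.3% called, against 55.4% of all tested genes. Lpin1, a phosphatidate phosphatase of triglyceride synthesis, was at 204 and 199 CPM against 22.7, 28.8 and 24.4 CPM (-2.99 ± 0.13 SE, adjusted p = 5.36e-05). Acsl5, an acyl-CoA synthetase, changed by -1.22 ± 0.11 SE (adjusted p = 0.000345), and Pnpla2, the triglyceride lipase, by -0.96 ± 0.12 SE (adjusted p = 0.00123). No gene of this list was called higher without quiescent McSC 2 or without melanocyte 2, and 1 was without quiescent McSC 1 or melanocyte 3. Fatty acid oxidation held 5 higher and 5 lower of 16 (62.5% called). Among the lower ones was Ppargc1a, a coactivator of mitochondrial genes (-2.38 ± 0.25 SE, adjusted p = 0.000651). Acadvl, which oxidises very long chain acyl-CoA in mitochondria, changed by -0.99 ± 0.14 SE (adjusted p = 0.00172). The 5 higher calls of oxidation became 1 without either McSC library and 3 without melanocyte 2 or 3, and the lower calls became 3 without quiescent McSC 2.

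**Figure D4:**
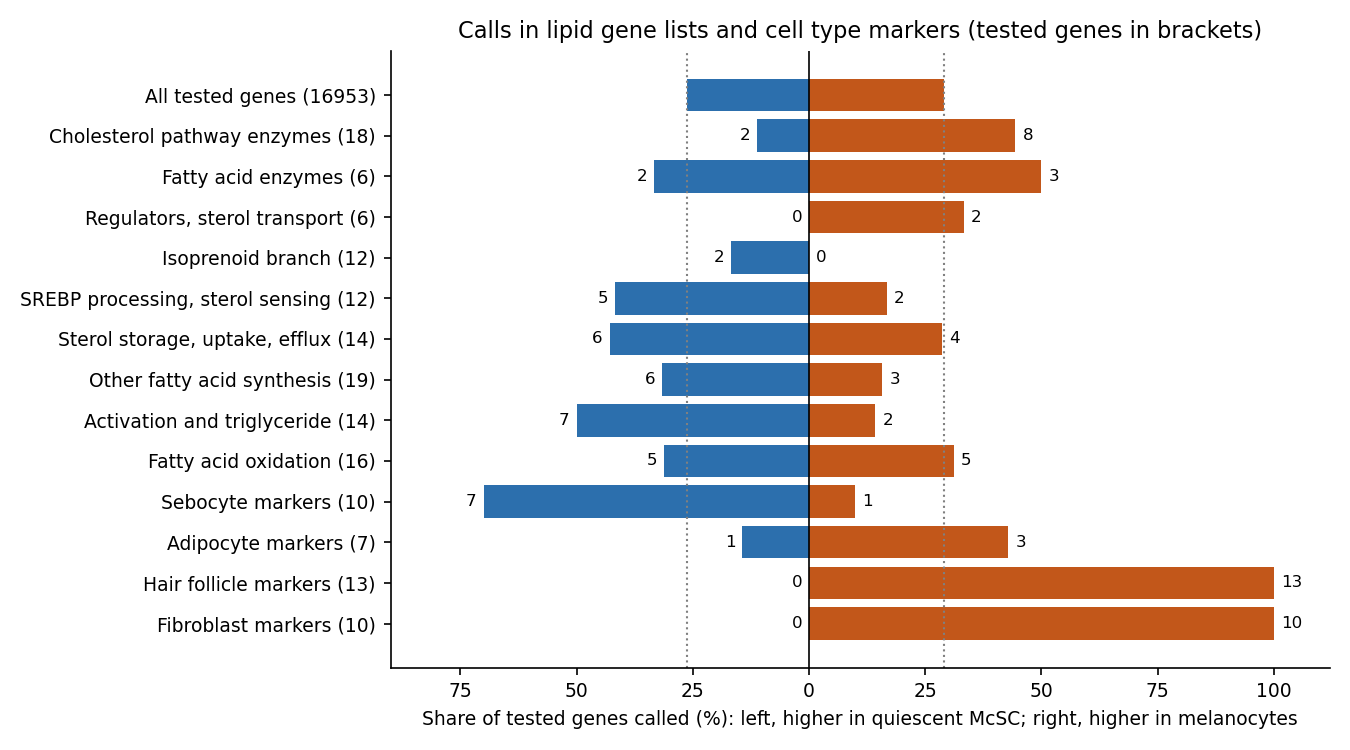
Share of tested genes (%) called higher in quiescent McSC (bars to the left) and in melanocytes (bars to the right) for each list, with the number called beside each bar and dotted lines at the shares of all tested genes. The cholesterol enzymes hold 8 higher against 2 lower, and fatty acid activation and triglyceride metabolism holds 2 higher against 7 lower.

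Markers of lipid-rich skin cells moved with the groups. The 10 sebocyte markers summed to 404 and 442 CPM in the quiescent McSC and to 232, 154 and 167 CPM in the melanocytes, and 7 were called lower in melanocytes and 1 higher. That is 70% lower and 10% higher, against 26.2% and 29.1% of all tested genes. None was at 0 in any library, but the lowest count was 1. In melanocyte 3, Cidea and Awat1 lay below 0.171 CPM, the level of 3 counts there. The most abundant of the 10 markers were Krt79, at 97.5 and 128 CPM against 51.5, 11.5 and 14.3 CPM, and Mgst1, at 101 and 105 CPM against 156, 122 and 135 CPM. Mgst1 was the 1 called higher, and that call was lost without either McSC library or melanocyte 3. Fa2h (70.1 and 68.6 against 2.54, 1.31 and 1.07 CPM) and Cidea (17.7 and 19.6 against 0.493, 0.103 and 0.107 CPM), named after their values were seen, had the largest separation together with the wax synthase Awat1, at 6.67 and 8.63 against 0.222, 0.0440 and 0.0535 CPM. Krt79, Fa2h, Cidea and Awat1 moved in the same direction as Scd1, Scd3, Elovl4 and Elovl6. Mgst1 went the other way, and 2 of the 10 markers were not called. The part of sebocyte RNA in the differences of Scd1, Scd3, Elovl4 and Elovl6 was not tested. The 10 adipocyte markers summed to 61.6 and 52.3 CPM in the quiescent McSC and to 151, 206 and 129 CPM in the melanocytes. Most of the sum in the quiescent McSC was Lpl, the lipoprotein lipase, at 58.1 and 47.8 CPM against 55.1, 74.6 and 78.5 CPM, which overlapped between groups (adjusted p = 0.121). Fabp4, also made by endothelial cells, rose from 0.112 and 0.0446 CPM to 91.3, 129 and 49.2 CPM. Adipoq, the defining adipocyte hormone, was at 0 and 0.0357 CPM against 0.321, 0.396 and 0.107 CPM. It was called higher in melanocytes (adjusted p = 0.0217). Adig went the other way, at 1.81 and 1.79 CPM against 0.518, 0.308 and 0.321 CPM (adjusted p = 0.00436). Of the 7 tested adipocyte markers, 3 were called higher and 1 lower (57.1%), against 55.4% of all tested genes. Cfd and Lep were at 0 in both McSC libraries, and Lep also in melanocyte 3. Cfd was called higher in melanocytes (adjusted p = 0.0086), at 0.444, 1.07 and 0.160 CPM. The part of adipocyte RNA in the higher Scd2, Acaca and Fasn was not tested beyond these levels.

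**Figure D5:**
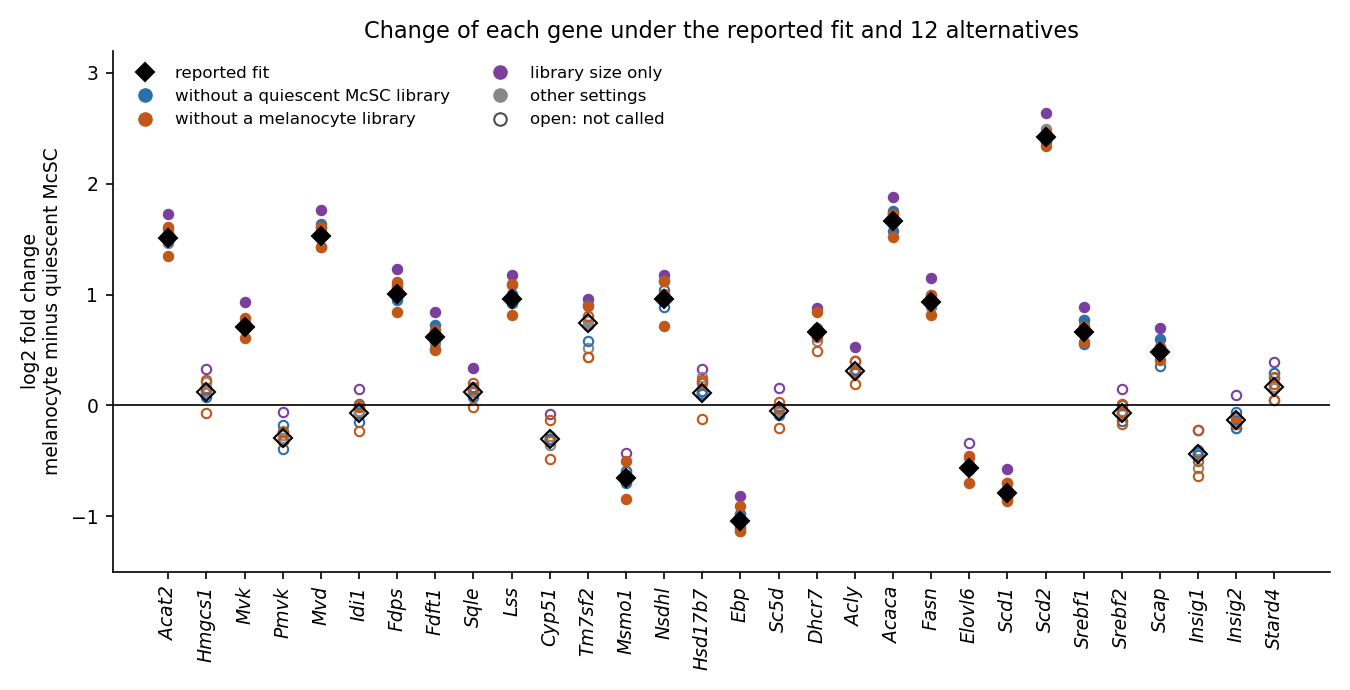
Log2 fold change of each of the 30 genes under the reported fit (diamonds) and under the 12 alternatives (circles), open where not called. No called gene crosses 0, and the points that do cross belong to genes such as Idi1, Srebf2 and Insig2 that were not called.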

How the data were processed

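The authors deposited whole-number counts for each gene in each library, which were read as raw. Per the submitters' processing notes, STAR 2.5.2a, Salmon 0.8.2 and build mm10 were used, without their roles; the sources used here name no counting program or annotation. Of 24100 Entrez identifiers, 24045 matched a RefSeq symbol. Genes were filtered (filterByExpr), TMM-scaled and compared over all 5 libraries in edgeR 4.0.16 under R 4.3.3 (quasi-likelihood, two-sided); p-values of 16953 genes were adjusted by Benjamini-Hochberg and called under 0.05. The script was tested on simulated counts. Levels per kb use the longest principal transcript of GENCODE M21.

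The members and lists were chosen with earlier results of these data known. All members are named; of other lists, up to 3 called genes with the smallest p; of marker lists, the 2 most abundant. 1 gene that this rule names is counted in its list but not reported here. Krt10, Adipoq, Adig, Cfd, Lep, Fa2h, Cidea, Awat1 and Ctsb were named after their values were seen. Alternatives were other size factors, library size only, a replicate block, a stricter filter (at least 5 CPM in 2 or more libraries), none at all, DESeq2 1.42.0, thinning to 17512381 counts, and leaving out each library. A fit with 1 quiescent McSC library takes its spread from the melanocytes. Reads of overlapping genes and near copies may be shared. The libraries are pools of separate animals per the labels. The strength of each p is limited by having 2 and 3 libraries.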

Additional observations from a re-analysis of the deposited data

How the results depend on the processing

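Of the 17 calls among the 30 genes, 10 (Acat2, Mvk, Mvd, Fdps, Lss, Ebp, Acaca, Fasn, Scd1 and Scd2) held under all 12 alternatives, and no called gene changed direction. Calls kept numbered 17 with other size factors, no filter, the stricter filter or DESeq2, 16 after thinning, 15 with library size only, and 11 to 17 when a library was left out. Members called lower numbered 2 with library size only and 2 to 4 when a library was left out. Cholesterol enzymes called lower numbered 1 with library size only and after thinning, and 1 to 2 when a library was left out. Those called higher ranged from 5 to 9 when a library was left out. Fatty acid enzymes called lower numbered 1 with library size only and 1 to 2 when a library was left out, and regulators called higher ranged from 0 to 2. Genes called lower in the whole table ranged from 2955 to 4857 when a library was left out. With library size only the median log2 fold change was 0.46 over the members, 0.59 over cholesterol enzymes, 0.84 over fatty acid enzymes and 0.26 over all genes. When a library was left out, these medians ranged from 0.12 to 0.33, 0.24 to 0.44 and 0.51 to 0.70 for the first 3 sets. The median of all genes was 0.07 with no filter, 0.00 with the stricter filter, 0.06 after thinning and 0.00 to 0.07 when a library was left out. Direction turned in genes that were not called. With library size only, Idi1 was at 0.15, Sc5d at 0.16, Srebf2 at 0.15 and Insig2 at 0.09. When a library was left out, log2 fold changes ranged from -0.07 to 0.23 for Hmgcs1, -0.23 to 0.01 for Idi1, -0.01 to 0.20 for Sqle, -0.12 to 0.23 for Hsd17b7, -0.20 to 0.03 for Sc5d and -0.17 to 0.01 for Srebf2. Some calls were gained: Tm7sf2 with library size only (adjusted p = 0.0354) and DESeq2 (0.0418), and Sqle (0.0484) and Acly (0.0181) with library size only. The causes were not tested.

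The replicate numbers are shared between groups in the labels, but the libraries are pools of separate animals of different ages, so they were not taken as pairs. Deviations from the group means of libraries with the same number had correlations across genes of 0.0368 and -0.0848. With 2 quiescent McSC libraries, the deviations of 1 mirror those of the other, so these values alone cannot settle pairing. With a replicate block, 12 of the 17 calls were kept: 10 members were higher and 2 lower, with 1 cholesterol enzyme lower, 1 fatty acid enzyme lower and 1 regulator higher. The median of all genes was then 0.01, and Srebf2 was at 0.00. The block ended the calls of Fdft1 (adjusted p = 0.0554), Msmo1 (0.0847), Dhcr7 (0.0856), Elovl6 (0.0901) and Scap (0.0580).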

Other observations

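Elovl1, Elovl3 and Fads2 also separated the groups. Other elongases and desaturases did not. Elovl5 (-0.08, adjusted p = 0.702), Elovl7 (-0.19, adjusted p = 0.619) and Scd4 (0.23, adjusted p = 0.662) overlapped between groups. Fads1 had groups that were apart but was not called (0.37, adjusted p = 0.0643). All of these were named after their values were seen. Elovl1, which acts on saturated and monounsaturated very long chain fatty acids, was at 201 and 193 CPM in the quiescent McSC and 43.5, 70.9 and 73.8 CPM in the melanocytes (-1.65 ± 0.23 SE, adjusted p = 0.00173). Elovl3, which also stands in the sebocyte marker list, was at 19.1 and 22.0 CPM against 1.33, 6.99 and 2.46 CPM (-2.49 ± 0.64 SE, adjusted p = 0.0182). Fads2, the delta-6 desaturase of polyunsaturated fatty acids, went the other way, at 16.5 and 15.9 CPM against 52.1, 59.1 and 49.4 CPM (1.73 ± 0.13 SE, adjusted p = 0.000221). In Tm7sf2, 532 bases overlap Vps51 on the same strand. Vps51 was lower in melanocytes (-0.56, adjusted p = 0.0181), while Tm7sf2 changed by 0.74 without a call.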
